A study of Mus musculus with 6 samples.

Results

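The genes described here supply the cell with charged tRNAs and with amino acids. They form a list of 41 genes in 4 roles: 20 cytosolic aminoacyl-tRNA synthetase genes, 9 enzymes of serine, asparagine and one-carbon metabolism, 6 amino acid transporter genes and 6 stress regulators that answer to amino acid shortage. Of the 41, 39 were measured by a probe set that names a single gene, among 19938 genes in all. Aars and Dars are not analysed here. Where a gene had several probe sets, the brightest on average was taken. Members are listed by name and not by a measured value, though the list was chosen with earlier results of these data known.

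The cells were group 3 innate lymphoid cells (ILC3s) carrying the chemokine receptor CCR6, sorted from the lamina propria of the small intestine of adult C57BL/6 mice. ILC3s are lymphocytes without antigen receptors that make cytokines guarding the gut wall, and the CCR6+ subset is related to the cells that induce lymphoid tissue. The RANKL-deficient group held 3 arrays from Tnfsf11fl/fl mice that also carry a Cre transgene, so that both Tnfsf11 alleles are floxed and can be deleted where Cre is made. The control group held 3 arrays from Tnfsf11fl/fl mice, which carry the same floxed alleles and for which the labels name no Cre, so Cre and the deletion cannot be told apart. The labels name no treatment, and exact age and pooling of animals are not stated in them. Tnfsf11 encodes the TNF family cytokine RANKL. Values are RMA log2 expression values, and differences are RANKL-deficient minus control, so that 1 unit is a doubling.

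Each synthetase joins 1 amino acid to its tRNAs, and several of them sit together in a multisynthetase complex. When an amino acid runs short, uncharged tRNA activates the kinase GCN2 (Eif2ak4), translation slows, and the transcription factor ATF4 is made. ATF4 is known to raise the genes of many synthetases, of asparagine and serine synthesis and of amino acid transporters, together with Chac1, Trib3 and Sesn2. Activated lymphocytes are known to depend on the glutamine transporter Slc1a5 and on the Slc7a5/Slc3a2 pair for growth.

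Tnfsf11 itself measured 8.36, 8.65 and 8.52 on the RANKL-deficient arrays, against 8.76, 8.41 and 8.25 on the control arrays, a difference of 0.035 (SE 0.17). Whether this probe set lies inside the floxed stretch is not known here, so these values do not check the labels. Control arrays 1 and 2 stood apart from the rest, with mean correlations to the other arrays of 0.960 and 0.970 across genes, where the other 4 had 0.9745 to 0.9769. The mean over 8 measured ILC3 markers ran from 10.16 to 10.31 on RANKL-deficient arrays and from 9.91 to 10.16 on control arrays. Of the 8, 5 had positive and 3 negative differences. Cxcr5 was the 1 with an unadjusted p under 0.05, where 8.15% of all genes passed in either direction. It measured 9.95, 10.12 and 9.76 on the RANKL-deficient arrays and 8.91, 9.41 and 8.95 on the control arrays. Among genes of other cells, the T cell gene Cd3g measured 5.26, 4.20 and 4.89 on the RANKL-deficient arrays and 7.32, 6.93 and 5.82 on the control arrays. Cd4, which ILC3s of this subset can also express, had the opposite sign, with 9.27, 9.19 and 9.50 on the RANKL-deficient arrays and 8.19, 8.79 and 8.93 on the control arrays. Of the 6 measured T cell markers, 2 had positive and 4 negative differences. Their mean ran from 5.50 to 5.84 on RANKL-deficient arrays and from 5.63 to 6.07 on control arrays. All 7 epithelial and all 6 mast cell and granulocyte markers had negative differences, none with an unadjusted p under 0.05. Over all genes 39.5% had positive differences, and 0 of the mast cell and granulocyte markers lay above the median level. Positive and negative differences numbered 3 and 5 for myeloid, 2 and 4 for B and plasma cell, and 1 and 5 for stromal and endothelial markers. Of these, Adgre1 (myeloid, -0.54) and Mzb1 (plasma cell, 0.34) had an unadjusted p under 0.05. The part of other cells in the results below was not tested, and fewer cells of a type and less RNA per cell cannot be told apart in bulk samples.

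Promoters are shown first, since many of these genes are known targets of ATF4. RefSeq promoter windows (GRCm38.p6, 250 bases before to 50 after a start site) were at hand for 28 of the 39 members. That site is not always the outer start of the gene. The Slc7a11 window lies within the gene, which spans 50364936 to 50499087 on chromosome 3. The letters searched were TGATGNAA, the core of the element that ATF4 binds together with C/EBP factors, on both strands. Of the 30 windows of the members, 9 held a match, whereas 4.0% of all 32851 windows of that length did. The windows with a match belonged to 9 members, and that of Slc7a11 held 2 matches. Each is shown with 11 bases on either side, written in the direction in which the core reads, with the core in capitals.
Iars (chr13:49682126-49682155, minus strand): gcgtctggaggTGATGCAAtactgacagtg
Tars (chr15:11399655-11399684, plus strand): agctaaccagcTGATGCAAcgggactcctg
Gars (chr6:55037960-55037989, minus strand): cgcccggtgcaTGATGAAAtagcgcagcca
Yars (chr4:129189895-129189924, plus strand): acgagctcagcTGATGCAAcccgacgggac
Asns (chr6:7693214-7693243, minus strand): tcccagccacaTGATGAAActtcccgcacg
Chac1 (chr2:119351038-119351067, minus strand): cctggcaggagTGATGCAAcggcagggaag
Trib3 (chr2:152344028-152344057, plus strand): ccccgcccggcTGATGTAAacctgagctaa
Got1 (chr19:43524689-43524718, plus strand): ggaggcttgtaTGATGCAAccaatgcaatg
Slc7a11 (chr3:50443642-50443671, plus strand): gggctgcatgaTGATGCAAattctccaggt
Slc7a11 (chr3:50443661-50443690, minus strand): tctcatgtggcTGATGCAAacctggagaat
In Tars, Gars and Asns the first base of the core, counted along the gene from the window's start site, lay at -15, -30 and -23. In Yars, Iars and Trib3 it lay just past that site, at 4, 8 and 15. The Yars gene itself starts further upstream, at base 129189734. A match is a description of letters and not proof of binding.

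The whole windows are shown for the 4 members with the smallest p that had one, of which Iars, Tars and Gars hold the core and Shmt2 does not. The core is in capitals, and reads on the other strand where it appears as its reverse complement.
Iars (chr13:49681880-49682179, plus strand): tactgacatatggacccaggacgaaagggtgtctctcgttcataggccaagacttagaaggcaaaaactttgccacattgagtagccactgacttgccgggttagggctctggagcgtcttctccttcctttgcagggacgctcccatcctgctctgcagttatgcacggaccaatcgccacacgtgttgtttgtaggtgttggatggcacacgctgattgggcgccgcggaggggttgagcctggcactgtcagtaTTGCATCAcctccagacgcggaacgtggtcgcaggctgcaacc
Tars (chr15:11399609-11399908, minus strand): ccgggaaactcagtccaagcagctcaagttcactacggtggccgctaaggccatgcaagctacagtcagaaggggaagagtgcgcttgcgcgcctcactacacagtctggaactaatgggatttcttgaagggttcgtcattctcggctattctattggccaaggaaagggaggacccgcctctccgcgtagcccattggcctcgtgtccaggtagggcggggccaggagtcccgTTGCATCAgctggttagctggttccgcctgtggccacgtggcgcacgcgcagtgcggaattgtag
Gars (chr6:55037751-55038050, plus strand): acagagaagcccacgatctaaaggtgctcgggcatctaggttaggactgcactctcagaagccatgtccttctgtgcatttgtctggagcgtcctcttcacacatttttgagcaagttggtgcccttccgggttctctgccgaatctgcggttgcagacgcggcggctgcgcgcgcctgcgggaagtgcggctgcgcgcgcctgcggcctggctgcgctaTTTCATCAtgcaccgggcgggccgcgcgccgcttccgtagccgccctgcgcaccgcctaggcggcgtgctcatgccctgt
Shmt2 (chr10:127522395-127522694, minus strand): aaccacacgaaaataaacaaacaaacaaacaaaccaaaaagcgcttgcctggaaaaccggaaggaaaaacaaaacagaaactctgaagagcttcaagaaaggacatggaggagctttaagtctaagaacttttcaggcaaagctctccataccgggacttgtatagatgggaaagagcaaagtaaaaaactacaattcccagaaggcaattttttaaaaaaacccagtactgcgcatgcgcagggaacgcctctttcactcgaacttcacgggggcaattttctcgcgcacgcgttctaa

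No member passed the adjusted threshold of 0.05 (limma, Benjamini-Hochberg over all genes), and the smallest adjusted p of a member was 0.423. Over all genes 0.00502% passed, which is 1 gene. At an unadjusted p under 0.05, 3 members lay higher in RANKL-deficient cells, where 4.25% of all genes did, and 2 lay lower, where 3.9% did. Together these are 5 members, where 8.15% of all genes passed in either direction. The 3 were Wars, Shmt2 and Slc1a5, and the 2 were Iars and Tars. Iars was counted by the brighter of its probe sets, while the other had a difference of -0.20 and overlapping groups. All RANKL-deficient arrays lay above all control arrays for 2 members, against 5.28% of all genes, and below them for 5 members, against 9.08%. For genes above the median level those shares were 9.12% and 6.11%, and the shares at an unadjusted p under 0.05 were 7.82% higher and 3.87% lower. The median difference of the 39 members was 0.077, while that of all genes was -0.054. A positive difference was found for 28 members, against 39.5% of all genes, but for genes above the median level, as 33 of the members were, that share was 54.7%. The 95% confidence interval of the difference stayed within 1 log2 unit of 0 for 31 of the 39 members, so a doubling or halving lay outside these intervals. The 8 others were Iars, Wars, Yars, Nars, Hars, Shmt2, Slc1a5 and Slc3a2.

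**Figure D1:**
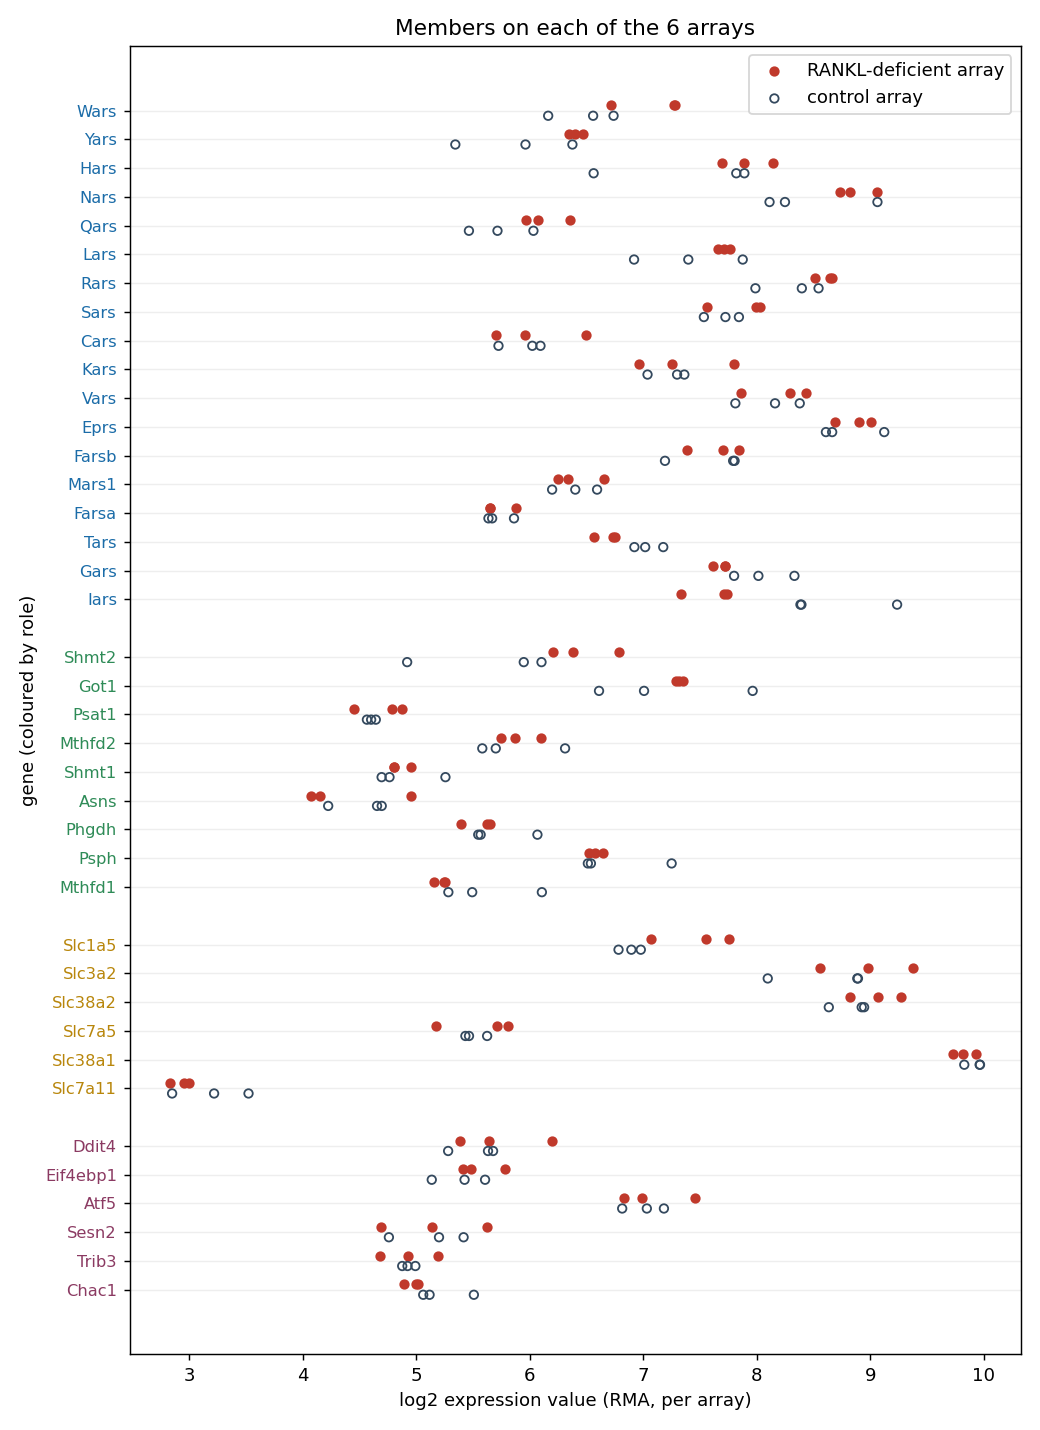
Log2 expression value (x axis) of the 39 measured members (y axis, coloured by role) on each array. Filled red points are the 3 RANKL-deficient arrays and open points the 3 control arrays, and the groups overlap for 32 members.

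**Figure D2:**
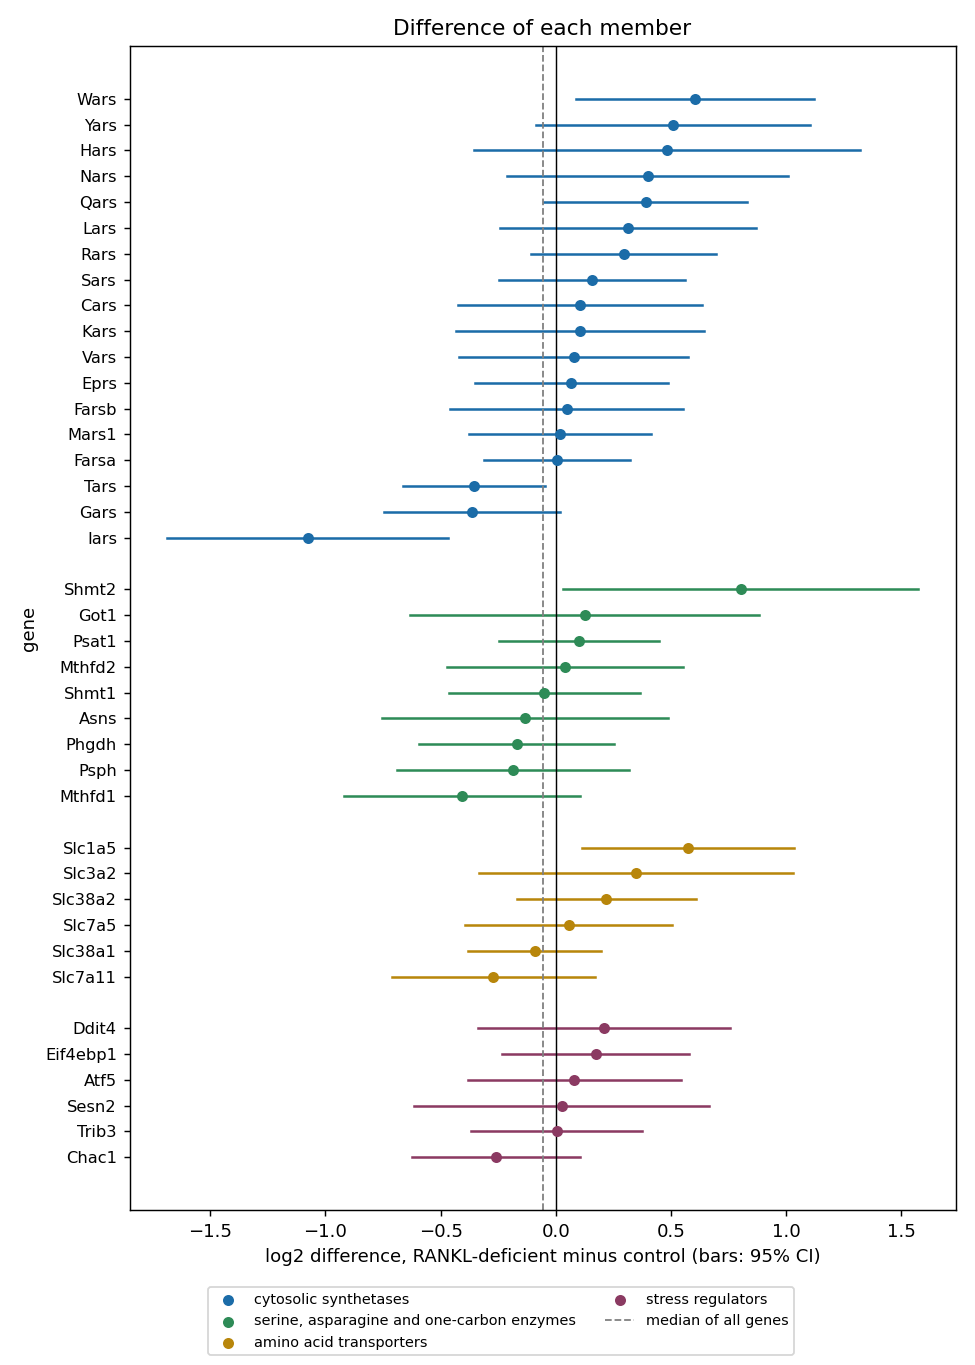
Difference of each member in log2 units, RANKL-deficient minus control (x axis), with its 95% confidence interval from limma, by role. The dashed line is the median of all genes, -0.054, and Iars at -1.08 and Shmt2 at 0.80 lie farthest from 0.

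Among the 18 measured synthetases, 15 had positive differences and 3 negative ones, with a median of 0.11. Of these, 1 was higher and 2 lower at an unadjusted p under 0.05, and none passed the adjusted threshold. All 18 lay above the median level, where 54.7% of genes had positive differences. At the same unadjusted p, 7.82% of those genes were higher and 3.87% lower. The mean over the 18 was 7.25, 7.45 and 7.44 on the RANKL-deficient arrays and 7.15, 7.22 and 7.46 on the control arrays. The groups thus overlapped, and control array 3 had the highest mean of all 6. Without control arrays 1 and 2 only 8 of the 18 differences were positive and the median was -0.070. After quantile normalization and after cyclic loess, 11 of 18 were positive.

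**Figure D3:**
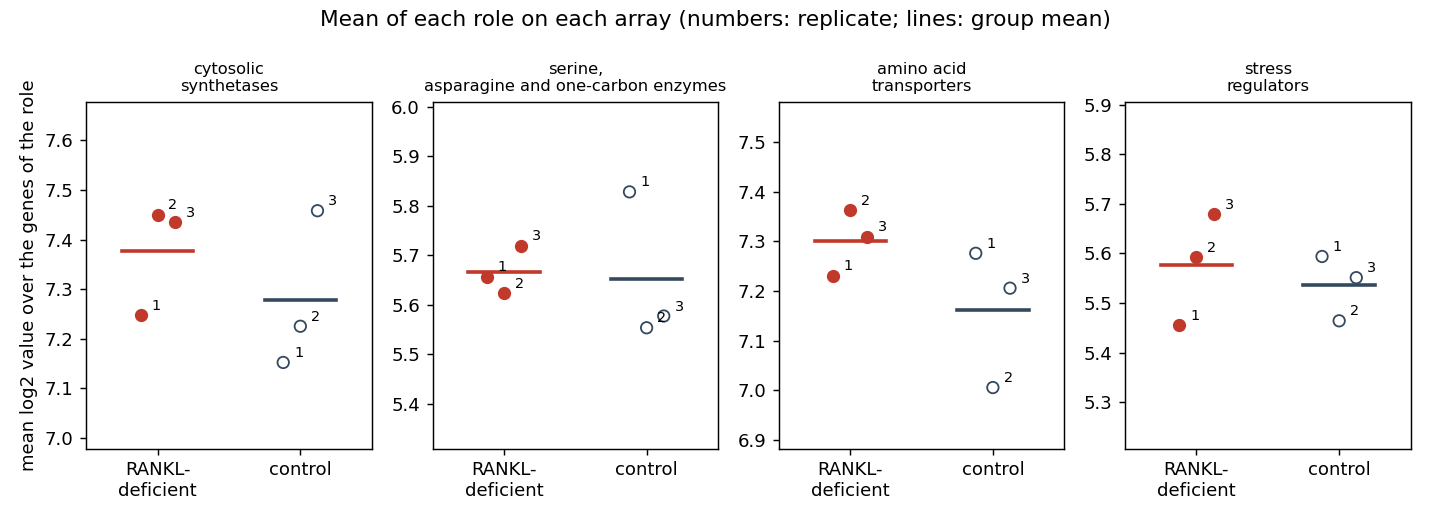
Mean log2 value (y axis) over the genes of each role on each array, RANKL-deficient (filled) and control (open), with the replicate number beside each point and the group mean as a line. The groups overlap in all 4 roles.

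Iars, which charges isoleucine tRNA, had the lowest p of the members. Its probe set measured 7.71, 7.33 and 7.74 on the RANKL-deficient arrays, against 9.24, 8.39 and 8.39 on the control arrays. All RANKL-deficient arrays lay below all control arrays, with a difference of -1.08 (SE 0.26, limma adjusted p = 0.423). The other Iars probe set measured 7.11, 6.46 and 6.67 on the RANKL-deficient arrays and 6.51, 7.07 and 7.27 on the control arrays. There the groups overlapped, and the difference was -0.20 with an interval of -0.79 to 0.40. The Iars gene lies on chromosome 13 of the RefSeq assembly. The 10 probe sets whose identifiers flank that of the used Iars probe set all name genes on chromosome 1, and 9 of the 10 flanking the other name genes on chromosome 13. For the other 38 members, the flanking probe sets named genes on the member's own chromosome most often. Of 16390 probe sets whose 10 flanking ones all named genes on 1 chromosome, 97.52% named a gene on that chromosome. The position of the used probe set is not stated, so the lower value was not shown to be that of the Iars gene itself.

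The threonine and glycine synthetases also had values that did not overlap between the groups. Tars measured 6.75, 6.56 and 6.74 on the RANKL-deficient arrays, against 7.18, 7.02 and 6.92 on the control arrays. The groups did not overlap, and the difference was -0.35 (SE 0.13, limma adjusted p = 0.590). Gars, which also provides the mitochondrial glycine enzyme, measured 7.62, 7.72 and 7.72 in RANKL-deficient cells and 8.02, 8.33 and 7.80 in controls. Here too the groups were apart, though control array 3 lay close to the RANKL-deficient arrays, and the difference was -0.36 (SE 0.16, limma adjusted p = 0.618). Without control arrays 1 and 2 the differences of Tars and Gars were -0.24 and -0.11.

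Wars, the tryptophan synthetase, is known as an interferon-inducible gene. It measured 6.72, 7.27 and 7.28 on the RANKL-deficient arrays and 6.16, 6.74 and 6.56 on the control arrays. RANKL-deficient array 1 lay just below control array 2, and the difference was 0.61 (SE 0.22, limma adjusted p = 0.587). It stayed between 0.44 and 0.79 when any 1 array was left out, and was 0.53 without control arrays 1 and 2.

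Other synthetases with positive differences were low on control array 1, control array 2 or both. Yars, for tyrosine, measured 6.35, 6.47 and 6.40 in RANKL-deficient cells and 5.96, 5.35 and 6.38 in controls, a difference of 0.51 (SE 0.25). Hars, for histidine, measured 7.70, 8.14 and 7.89 in RANKL-deficient cells and 6.56, 7.82 and 7.89 in controls, a difference of 0.48 (SE 0.36). For Yars control array 2 was the lowest array, and for Hars control array 1, while control array 3 lay among the RANKL-deficient arrays in both. Nars, for asparagine, measured 9.06, 8.83 and 8.74 in RANKL-deficient cells and 8.25, 8.11 and 9.06 in controls. Lars, for leucine, measured 7.66, 7.77 and 7.71 in RANKL-deficient cells and 7.40, 6.92 and 7.88 in controls. For both, control arrays 1 and 2 were low and control array 3 was not. Without control arrays 1 and 2 the differences of Yars, Hars, Nars and Lars were 0.028, 0.018, -0.19 and -0.17, against 0.51, 0.48, 0.40 and 0.31 with all arrays. Qars, for glutamine, measured 5.96, 6.07 and 6.35 in RANKL-deficient cells and 5.46, 5.72 and 6.03 in controls, a difference of 0.39 (SE 0.19). Rars, for arginine, measured 8.64, 8.51 and 8.67 in RANKL-deficient cells and 7.99, 8.40 and 8.55 in controls. Only control array 3 reached the RANKL-deficient range in each of these, and the difference of Rars was 0.30 (SE 0.17).

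The remaining 8 synthetases, for serine, cysteine, lysine, glutamate with proline, valine, phenylalanine (both subunits) and methionine, lay near 0. Their differences ran from 0.0045 for Farsa to 0.16 for Sars, each smaller than its SE. Farsa, the catalytic chain of the phenylalanine enzyme, measured 5.65, 5.65 and 5.88 in RANKL-deficient cells and 5.86, 5.64 and 5.67 in controls. Farsb, the other chain, differed by 0.047 (SE 0.21). Kars, for lysine, was highest on RANKL-deficient array 2 at 7.80, with 6.96 and 7.25 on the other RANKL-deficient arrays and 7.04, 7.30 and 7.36 in controls. The 7 measured synthetases of the multisynthetase complex (Eprs, Iars, Kars, Lars, Mars1, Qars and Rars) had a median difference of 0.105, and the 11 outside it also 0.105. These 2 subsets were formed with the values known. Of the complex's 3 scaffold genes, Aimp1 had 0.39, Aimp2 -0.047 and Eef1e1 -0.71, and none passed at an unadjusted p under 0.05.

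The mitochondrial synthetases, encoded by separate genes for most amino acids, were measured for 16 of 17 listed genes. Of these 6 had positive and 10 negative differences, with a median of -0.083, and none passed the adjusted threshold. Over all genes 39.5% had positive differences, and 54.7% of those above the median level, as 13 of the 16 were. Sars2, for serine, measured 7.19, 6.08 and 6.26 on the RANKL-deficient arrays and 5.87, 5.34 and 5.80 on the control arrays. It was the 1 gene of the 16 with an unadjusted p under 0.05, where 8.15% of all genes passed in either direction. Its cytosolic counterpart Sars differed by 0.16. Vars2, for valine, had a difference of -0.46, and its cytosolic counterpart Vars one of 0.077.

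Of the 9 serine, asparagine and one-carbon enzymes, 4 had positive and 5 negative differences, with a median of -0.049, and none passed the adjusted threshold. Shmt2 makes glycine and one-carbon units from serine in mitochondria. It measured 6.79, 6.38 and 6.21 in RANKL-deficient cells, against 4.92, 6.10 and 5.95 in controls. The groups did not overlap, but control array 1 lay far below the other controls. The difference was 0.80 (SE 0.33, limma adjusted p = 0.603), and 0.43 without control array 1. Shmt1, the cytosolic enzyme, differed by -0.049 (SE 0.18). Mthfd1, the cytosolic folate enzyme of the next steps, measured 5.15, 5.25 and 5.26 in RANKL-deficient cells and 6.11, 5.28 and 5.49 in controls. All RANKL-deficient arrays lay below the controls, control array 2 only just above them, with a difference of -0.41 (SE 0.22). Its mitochondrial relative Mthfd2 measured 6.10, 5.87 and 5.75 in RANKL-deficient cells and 5.58, 6.31 and 5.70 in controls, and the groups overlapped.

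The 3 enzymes that build serine from glycolytic carbon had small differences of mixed sign. Phgdh, the first of them, measured 5.65, 5.39 and 5.63 in RANKL-deficient cells and 6.07, 5.57 and 5.55 in controls, a difference of -0.17 (SE 0.18). Psat1 differed by 0.10 (SE 0.15), and Psph, the last step, by -0.19 (SE 0.21). Psph was higher on control array 1, at 7.25, than on the other 5 arrays, which lay between 6.51 and 6.64. Asns, which makes asparagine and is a standard readout of ATF4, measured 4.15, 4.07 and 4.95 in RANKL-deficient cells and 4.70, 4.22 and 4.66 in controls. RANKL-deficient array 3 was the highest and array 2 the lowest, and the difference was -0.13 with an interval of -0.76 to 0.49. Got1, the cytosolic aspartate aminotransferase, measured 7.29, 7.32 and 7.35 in RANKL-deficient cells, against 7.96, 6.61 and 7.01 in controls. The RANKL-deficient arrays lay close together (SD 0.033), inside the wide range of the controls (SD 0.70).

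Of the 6 transporter genes, Slc1a5, which exchanges glutamine and other neutral amino acids, was the 1 with an unadjusted p under 0.05. It measured 7.07, 7.76 and 7.55 in RANKL-deficient cells and 6.90, 6.78 and 6.98 in controls. The groups did not overlap, with RANKL-deficient array 1 closest to the controls, and the difference was 0.57 (SE 0.19, limma adjusted p = 0.566). It ran from 0.42 to 0.77 when any 1 array was left out, and was 0.48 without control arrays 1 and 2. Slc7a5 carries leucine and other large amino acids, and Slc3a2 is its partner chain. Slc7a5 measured 5.81, 5.72 and 5.17 in RANKL-deficient cells and 5.43, 5.47 and 5.63 in controls, a difference of 0.057 (SE 0.19). Slc3a2 measured 8.56, 8.98 and 9.38 in RANKL-deficient cells and 8.89, 8.10 and 8.89 in controls, a difference of 0.35 (SE 0.29). The groups overlapped for both chains.

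The sodium-coupled glutamine and alanine carriers Slc38a1 and Slc38a2 differed by -0.092 (SE 0.12) and 0.22 (SE 0.16). Slc38a1 had the smallest SE of the members, and its other probe set gave -0.25. Slc7a11, the cystine carrier, measured 2.95, 2.83 and 2.99 in RANKL-deficient cells and 3.52, 3.22 and 2.85 in controls. Both its group means lay below the median gene (5.12), as did those of Asns, Psat1, Shmt1 and Trib3. No background level was measured here, so a difference among such low values can be understated.

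Of the 6 stress regulators 5 had positive differences and 1 a negative one, with a median of 0.054, and none passed at an unadjusted p under 0.05. A positive difference was found for 54.7% of genes above the median level, as 4 of these 6 were. Trib3, a pseudokinase that restrains ATF4, measured 4.68, 5.19 and 4.93 in RANKL-deficient cells and 4.88, 4.99 and 4.92 in controls. Its difference was 0.0052 with an interval of -0.37 to 0.38. Sesn2, a leucine sensor that restrains the growth kinase complex mTORC1, measured 5.14, 4.69 and 5.62 in RANKL-deficient cells and 5.20, 4.76 and 5.42 in controls. The values ran over nearly the same range in both groups. Ddit4, another inhibitor of mTORC1, differed by 0.21 (SE 0.23), with RANKL-deficient array 2 the highest at 6.20. The transcription factor Atf5 differed by 0.081 (SE 0.20) and Eif4ebp1, which holds back cap-dependent translation, by 0.17 (SE 0.17). Chac1, which degrades glutathione, measured 5.02, 4.998 and 4.90 in RANKL-deficient cells and 5.06, 5.51 and 5.12 in controls. All RANKL-deficient arrays lay below all controls by a narrow gap, and the difference was -0.26 (SE 0.15, limma adjusted p = 0.687).

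Further regulators of this response, not only those upstream of ATF4, were measured for 12 of 13 listed genes. None passed the adjusted threshold. At an unadjusted p under 0.05, 1 was higher and 1 lower. All 12 lay above the median level, where 7.82% of genes were higher and 3.87% lower. The RANKL-deficient arrays lay above all controls for 1 of the 12 and below them for 3, against 9.12% and 6.11% of genes above that level. Atf4 measured 8.94, 9.21 and 8.93 in RANKL-deficient cells and 9.49, 9.22 and 8.90 in controls, a difference of -0.17. ATF4 is controlled mainly at translation, which arrays do not see. Its partner gene Ddit3 had a difference of -0.46, with 6.24, 6.48 and 5.74 in RANKL-deficient cells and 6.56, 6.91 and 6.38 in controls. The amino acid sensor kinase GCN2 (Eif2ak4) differed by -0.20. Eif2ak2, which encodes the kinase PKR and is itself an interferon-induced gene, measured 6.26, 6.86 and 6.51 in RANKL-deficient cells and 5.64, 5.55 and 5.52 in controls. The groups were well apart, with a difference of 0.97 (limma adjusted p = 0.306). Cebpb, a C/EBP partner of ATF4, had a difference of -0.34 and groups that did not overlap.

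The differences were then set beside the promoter windows. Of the 9 members with a match, 6 had negative differences and the median was -0.26. Of the 19 with a window and no match, 4 had negative differences and the median was 0.068. The negative shares were thus 66.7% and 21.1%. The RANKL-deficient arrays lay below the controls for 4 of the 9 (Iars, Tars, Gars and Chac1) and for 1 of the 19 (Mthfd1). Yars, with a match, had the opposite sign at 0.51. Over all tested genes with a window, 66.7% of the 565 with a match had negative differences, and 59.6% of the 15049 without one. Their arrays were below for 11.5% and 9.0%, and their medians were -0.080 and -0.050. With the other Iars probe set in place of the used one, the median of the 9 was -0.20 and the arrays lay below for 3 of them. Without control arrays 1 and 2, 5 of the 9 and 6 of the 19 were negative, with medians of -0.11 and 0.059. Among the 19, 9 were negative after quantile normalization (median 0.0029), and 8 were negative without RANKL-deficient array 2 (median 0.058) and without RANKL-deficient array 3 (median 0.018), while 6 of the 9 with a match were negative in each of these. Among genes above the median level, 3 of 5 members with a match and 3 of 17 without were negative, with medians of -0.35 and 0.068. The members were divided in this way after the values were known, and the division was not tested.

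**Figure D4:**
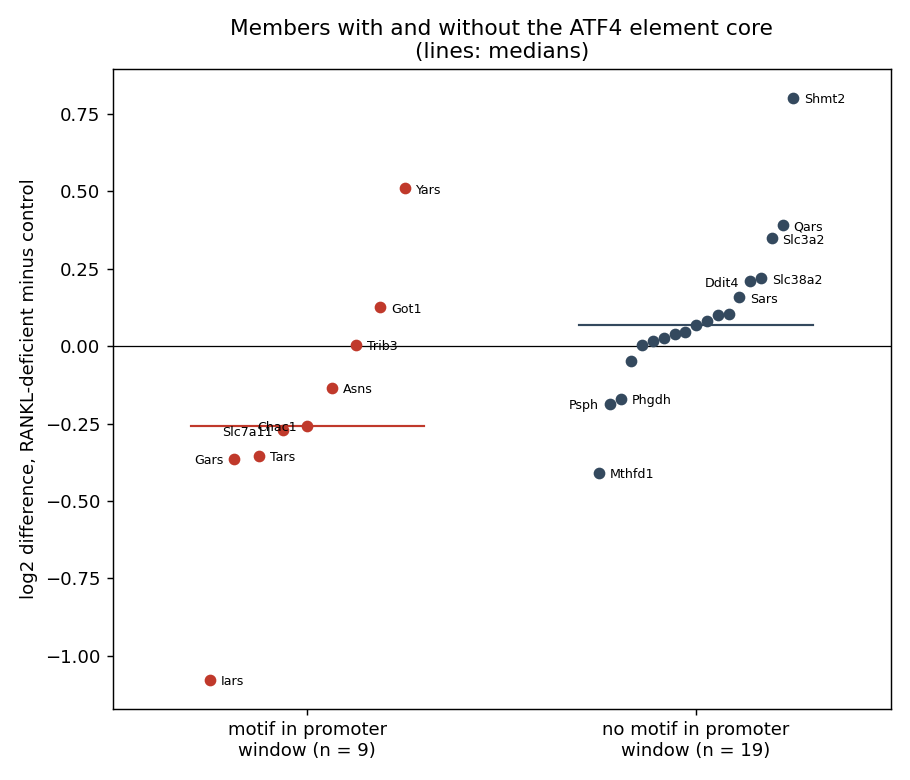
Difference of the 28 members with a promoter window in log2 units, RANKL-deficient minus control (y axis), for the 9 whose window holds TGATGNAA on either strand and the 19 whose window does not. Lines are medians, -0.26 and 0.068, and names are given for the members with a match and for the larger differences among the others.

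Extreme values were spread over both groups. Among the members, RANKL-deficient arrays 1, 2 and 3 held the highest or lowest value of the 6 arrays for 25.6%, 38.5% and 35.9%, and control arrays 1, 2 and 3 for 43.6%, 41.0% and 15.4%. Over all genes the shares ran from 27.7% to 29.8% for the RANKL-deficient arrays and were 51.2%, 33.8% and 29.5% for control arrays 1, 2 and 3. Against control array 3 alone, no member was higher and 1, Iars, lower at an unadjusted p under 0.05, with shares over all genes of 2.75% and 3.54%. In that fit the lone control is assumed to vary like the other group.

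**Figure D5:**
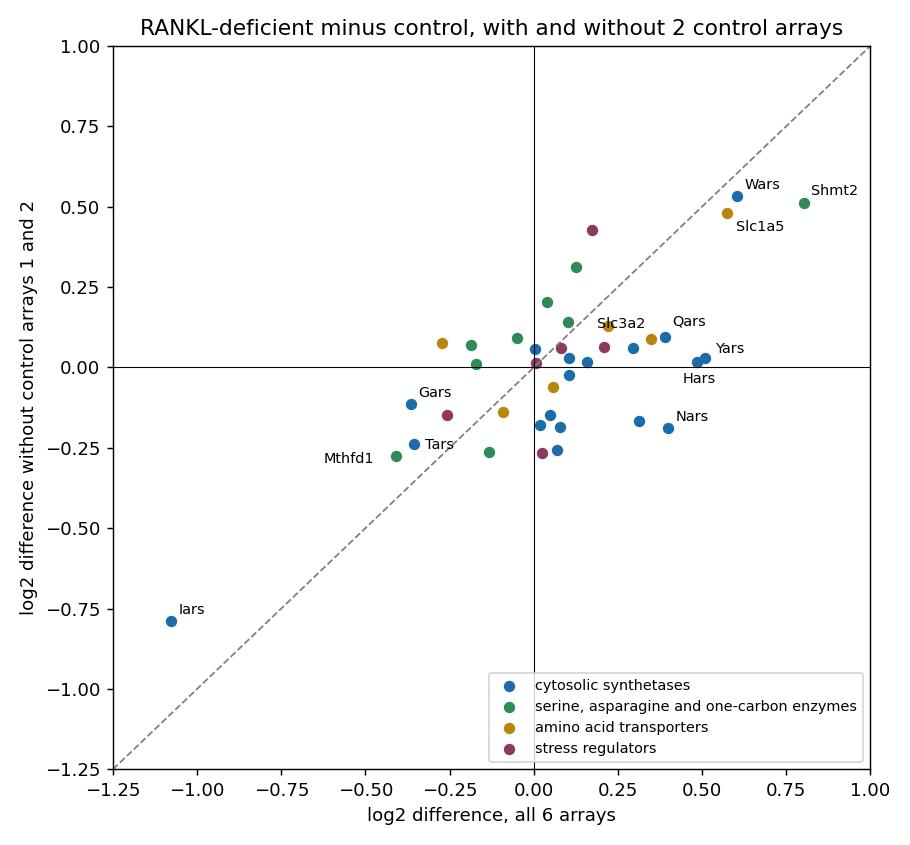
Difference of each member with all 6 arrays (x axis) and without control arrays 1 and 2 (y axis), in log2 units, RANKL-deficient minus control, coloured by role; the dashed line marks equal values. Iars, Wars, Shmt2 and Slc1a5 have -0.79, 0.53, 0.51 and 0.48 on the y axis, while Yars, Hars, Nars and Lars lie near or below 0.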

How the data were processed

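Sorted cells gave 2 ng of RNA, which was amplified and hybridised to 1 Affymetrix array per sample, per the labels' protocols. The authors deposited log2 values for 35556 probe sets on 6 arrays. RMA and Expression Console are named in the submitters' processing notes, without a version or genome build. RMA draws the arrays' distributions together, so it can hide a change shared by the whole transcriptome. Over the tested genes they were not equal. Array medians ran from 5.07 to 5.10 for RANKL-deficient and from 5.12 to 5.15 for control arrays. The SD was 1.86, 1.93 and 1.99 on control arrays 1, 2 and 3, and 2.00 to 2.01 on the others. The median difference of all genes was -0.016 after quantile normalization and -0.0027 after median centring. The number of arrays limits the precision.

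Probe sets were named by the platform annotation, with symbols updated by identifier against RefSeq (GRCm38.p6). Of them 21789 had 1 symbol, 1621 several and 12146 none, and only those with 1 were used. This gave 19938 genes, of which 19855 matched by identifier and 999 had several probe sets. No filter on low values was applied.

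Groups came from the sample titles. Each gene was fitted in limma (version 3.58.1, under R version 4.3.3) with lmFit and eBayes, two-sided, and p-values were adjusted by Benjamini and Hochberg across every tested gene, with 0.05 as the threshold. The labels do not call the samples of a group separate mice, so the p-values cover only the spread between these samples, possibly technical. The procedure was tested on simulated data. Members with an unadjusted p under 0.05 or groups that did not overlap were given in full. Of each further list up to 2 genes with the smallest p were given, with Atf4, Ddit3, Eif2ak4 and Myc added. Slc7a8 was added after the values were known. The members and lists were chosen with earlier results of these data known. Alternatives are given in the closing section. The driver of the Cre transgene is not reported here.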

Additional observations from a re-analysis of the deposited data

How the results depend on the processing

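With 3 arrays a group, the results depended on arrays of both groups. The SD was smaller in RANKL-deficient cells for 22 of the 39 members, against 66.4% of all genes. Positive differences, found for 28 members with all arrays, numbered 22 once RANKL-deficient array 2 was dropped. Dropping both control array 1 and control array 2 gave 23. Each other array left out alone gave 23 to 26. No member passed the adjusted threshold under any of the 16 alternatives, where the lowest adjusted p of a member was 0.211. Testing all named probe sets was added after seeing the data, and leaving out both control arrays was planned with earlier results known. The sign of 18 members held in all alternatives that included them. It could not change with trend and robust, the replicate block, all named probe sets or only genes above the median level. Those settings leave each difference as it was, and the mean of all probe sets alters only genes with several. The cause of the sign changes was not tested.

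The 1 gene past the adjusted threshold became 2 with eBayes trend and robust, 0 with the replicate block (934 higher and 662 lower genes at an unadjusted p under 0.05) and 0 without control arrays 1 and 2 (548 and 706), and 0 to 1 when 1 array was left out, 1 only without RANKL-deficient array 3. Members lower at an unadjusted p under 0.05 numbered 4 with array weights, and 1 with trend and robust, with only genes above the median level, with the replicate block and without both control arrays. Members higher numbered 0 without both control arrays. When 1 array was left out, members higher ran from 0 (without RANKL-deficient array 2) to 7 (without control array 3), members lower from 1 to 4, and the median difference from 0.036 to 0.142. Same-numbered arrays were not treated as pairs, since the labels give no pairing. Their deviations from the group means correlated at -0.023, 0.050 and 0.027. Those of differently numbered arrays correlated at -0.058 to 0.026, a like size, so these values cannot tell whether pairs exist.

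Signs turned with array weights (Farsb -0.0401, Shmt1 0.046, Mthfd2 -0.13, Trib3 -0.0095), cyclic loess (Eprs -0.023, Farsb -0.025, Mars1 -0.018, Vars -0.0048, Shmt1 0.039), median centring (Shmt1 0.0015), quantile normalization (Eprs -0.013, Farsa -0.031, Farsb -0.041, Mars1 -0.086, Shmt1 0.0029, Mthfd2 -0.0079, Atf5 -0.018) and without control arrays 1 and 2 (Eprs -0.26, Farsb -0.15, Kars -0.024, Lars -0.17, Mars1 -0.18, Nars -0.19, Vars -0.18, Phgdh 0.0105, Psph 0.069, Shmt1 0.092, Slc7a5 -0.0604, Slc7a11 0.076, Sesn2 -0.27). They also turned when 1 array was left out, over these ranges: Mthfd2 -0.101 to 0.26, Slc7a5 -0.064 to 0.25, Cars -0.12 to 0.28, Farsb -0.16 to 0.18, Kars -0.13 to 0.29, Mars1 -0.103 to 0.12, Asns -0.41 to 0.026, Trib3 -0.12 to 0.13, Ddit4 -0.019 to 0.39, Eprs -0.027 to 0.23, Farsa -0.071 to 0.074, Vars -0.075 to 0.25, Atf5 -0.102 to 0.21, Sesn2 -0.21 to 0.26, Psph -0.31 to 0.056, Shmt1 -0.15 to 0.13, Got1 -0.17 to 0.51.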

Other observations

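Of the genes of mTORC1 and its amino acid sensing, 23 of 24 listed genes were measured, 16 with positive and 7 with negative differences (median 0.097), and none passed the adjusted threshold. Above the median level, as 22 of the 23 were, 54.7% of genes had positive differences. Lamtor4, a subunit of the Ragulator complex that anchors mTORC1 to lysosomes, measured 8.42, 8.14 and 8.84 in RANKL-deficient cells, against 6.43, 7.49 and 7.85 in controls. The groups did not overlap, control array 1 was the lowest, and the difference was 1.21 (SE 0.37, limma adjusted p = 0.517). Lamtor2, another Ragulator subunit, measured 9.08, 8.99 and 8.66 in RANKL-deficient cells, against 8.69, 7.001 and 8.24 in controls. Its groups overlapped, with a difference of 0.93 (SE 0.41, limma adjusted p = 0.614). Myc, a transcription factor known to raise amino acid transporters and synthetases, measured 6.76, 7.30 and 6.75 in RANKL-deficient cells, against 5.54, 6.71 and 5.94 in controls. All RANKL-deficient arrays lay above all controls, by a narrow gap from control array 2, and the difference was 0.87 (SE 0.31, limma adjusted p = 0.582).

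Of further amino acid transporters, 17 of 17 listed genes were measured, 8 with positive and 9 with negative differences (median -0.020), and none passed the adjusted threshold. Slc38a7, a lysosomal glutamine carrier, measured 5.17, 5.18 and 5.16 in RANKL-deficient cells, against 5.35, 5.63 and 5.69 in controls. Slc7a7, a chain of a cationic amino acid exchanger, measured 4.35, 4.54 and 4.08 in RANKL-deficient cells, against 4.87, 4.79 and 4.65 in controls. In both the RANKL-deficient arrays lay below the controls, with differences of -0.39 and -0.45. They were the 2 of the 17 with arrays below, against 9.08% of all genes, and 0 had arrays above, against 5.28%. At an unadjusted p under 0.05, 1 of the 17 was higher and 2 lower, against 4.25% and 3.9% of all genes. The higher one was Slc7a8, with a difference of 0.77 and overlapping groups. Of further amino acid and folate enzymes, 14 of 21 listed genes were measured, 8 with positive and 6 with negative differences (median 0.058), and none passed the adjusted threshold. Gpt2 and Got2, mitochondrial aminotransferases for alanine and aspartate, had differences of -0.36 and -0.49.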
